A study of Mus musculus with 5 samples.

Results

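Transcripts of the insulin-like growth factor axis were measured cell by cell in the hippocampus of newborn mice. The axis was taken as 10 listed genes: the ligands Igf1 and Igf2, the receptors Igf1r and Igf2r, the binding proteins Igfbp2, Igfbp3, Igfbp4, Igfbp5 and Igfbp7, and the related Igfbpl1. All 10 are among the 32285 features, and each had at least 1 UMI (unique molecular identifier, which tags 1 captured RNA molecule) in every library.

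Igf1 and Igf2 are small secreted peptides that signal to growth, survival and metabolism through the tyrosine kinase receptor Igf1r. Igf2r binds Igf2 and delivers it to lysosomes, and the binding proteins hold the ligands outside the cell and can prolong or limit their action. Igf2 and Igf2r are imprinted in the mouse, and in the postnatal brain microglia, some neurons and the cells of vessels and meninges are known sources of the ligands.

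The study compared whole hippocampus of wild-type (Trem2 +/+) and Trem2 knockout (-/-) pups at postnatal day 1, and its title names neuronal bioenergetics and microglial Trem2. Trem2 is a surface receptor of microglia. Wild type is represented by replicates 1, 2 and 3 and the knockout by replicates 2 and 3. The hippocampi of 2 pups were pooled for every library, and the labels name no promoter or cell type that limits the knockout. The sex labels conflict: by the descriptions the pools of replicate 2 were 2 males and the others 1 female with 1 male, but a further label has both sexes in all 5 pools. Values of the 5 libraries are given below in the order wild-type 1, 2, 3 and knockout 2, 3. The labels do not say whether the pools came from separate litters, so p-values measure the spread between these pools.

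The files held 40345 barcodes and 60024793 to 91205882 UMIs per library, and pairs of libraries shared 12 to 26 barcodes, 0.184% to 0.350% of the smaller. After filtering and removal of 1369 cells that carried markers of incompatible classes, 29330 cells remained, 23838 of them in 14 classes gated on marker genes that exclude the axis. The smallest gated class, erythroid cells, held 27 cells and was not ordered. Gates for the hippocampal fields CA1 (438 cells), CA3 (2847 cells) and dentate granule neurons (2162 cells) were all filled. Of the 62 choroid plexus cells 31 carried just the 4 markers that the gate asks for. The median cell of that class had 4.5 of 7 choroid plexus markers, 4.5 of 7 ependymal and 6 of 7 radial glia markers, and their part in its levels was not tested. Levels are a gene's UMIs relative to all UMIs of its class in a library, on the usual CPM scale, with mean and SD over 5 libraries. A 3′ kit gives about 1 count per molecule, and levels are compared between classes for 1 gene, not between genes.

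Igf1 (ENSMUSG00000020053, chr10:87858265-87937042 in mm10, plus strand) was carried by macrophages of both kinds and by inhibitory neurons. Its mean level was 275 CPM ± 112 (SD, n = 5) in border macrophages, the macrophages of meninges and vessel surroundings, 274 ± 60.8 in microglia and 167 ± 21.2 in GABA neurons. Fibroblasts followed at 38.4 ± 16.9 CPM and choroid plexus cells at 15.9 ± 9.61, and the other classes lay under 5 CPM. In microglia the library levels were 337, 322, 218, 288 and 202 CPM, from 102, 56, 28, 44 and 15 cells. In border macrophages they were 314, 235, 452, 174 and 199.9 CPM, from 57, 32, 29, 31 and 8 cells. The 2 macrophage classes exchanged places between libraries, with border macrophages higher in 1 of 5 (exact sign-flip p = 0.812), whereas microglia were above GABA neurons in all 5 libraries.

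Within GABA neurons the level depended on the lineage of the interneuron. Cells gated for the caudal ganglionic eminence (CGE), the source of Vip and Reln interneurons, held 428, 373, 372, 442 and 378 CPM of Igf1. Those gated for the medial eminence (MGE), the source of Sst and Pvalb interneurons, held 123, 81.5, 61.0, 62.6 and 81.6 CPM. Every CGE value stood above every MGE value, and the log2 ratio was 2.31 (SE 0.09, edgeR adjusted p = 3.38e-20). At least 1 Igf1 UMI was found in 60.7% of 453 CGE cells and 32.0% of 641 MGE cells, at median depths of 7961 and 10234 UMIs. Excitatory neurons gave 1.24% at a median of 9464.5 UMIs, and the part of free RNA in these shares was not tested. After thinning every cell to 2000 UMIs, which left out 5 and 1 cells, the shares were 34.6% and 10.5%. The transcript was concentrated in few cells: the tenth of CGE cells with the most UMIs held 49.3% of the 1640 UMIs of that gate, and 1 cell held 46.

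GABA neurons were the largest source of Igf1 RNA among all kept cells in every library but wild-type replicate 2, where microglia were. The shares varied widely between libraries. GABA neurons supplied 39.2%, 25.9%, 67.9%, 57.2% and 80.7% of all Igf1 UMIs in kept cells, and microglia supplied 32.2%, 43.7%, 3.38%, 20.8% and 2.08%. Microglia made up 1.60%, 1.19%, 0.329%, 0.786% and 0.272% of cells, and GABA neurons 3.08%, 1.93%, 5.78%, 5.05% and 8.81%. The libraries low in microglia were the ones in which neurons dominated the Igf1 total, in both genotypes.

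**Figure D1:**
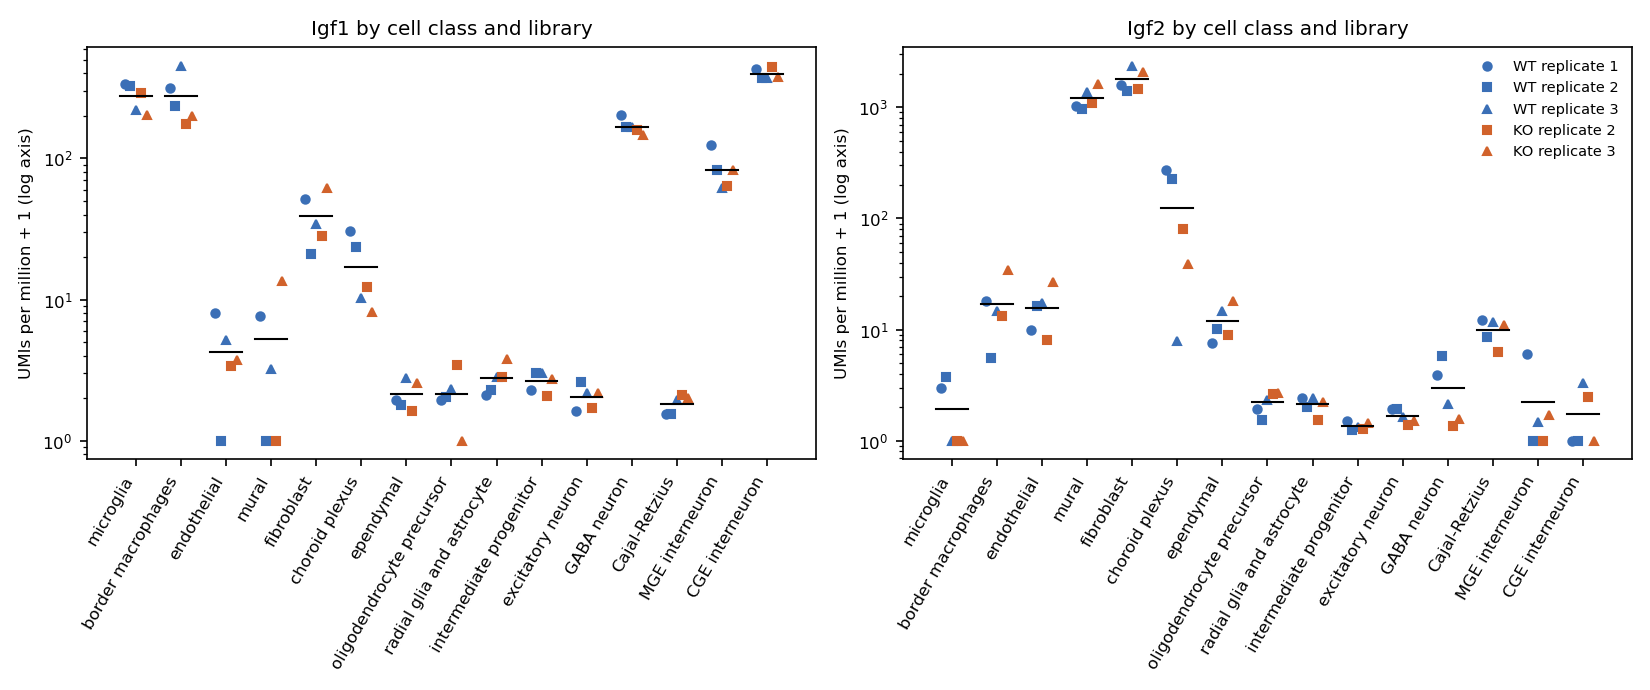
Igf1 (left) and Igf2 (right) in CPM of the class plus 1, on a log axis, in 13 cell classes and the MGE and CGE interneuron gates; each point is 1 library (blue wild type, orange knockout, shape by replicate number) and the bar is the mean of 5. Igf1 stands high in microglia, border macrophages and CGE interneurons (398 CPM), and Igf2 in fibroblasts and mural cells.

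Igf2 (ENSMUSG00000048583, chr7:142650766-142666816, minus strand) had a different pair of sources, both at vessels and meninges. Fibroblasts, the collagen-making cells of the meninges and vessel walls, held 1571, 1414, 2365, 1467 and 2097 CPM. Mural cells, which are pericytes and smooth muscle, held 1036, 961, 1366, 1098.5 and 1625 CPM. Fibroblasts were higher than mural cells in all 5 libraries, by a mean of 0.55 on the log2 scale, which is the most that 5 libraries can show in the exact sign-flip test (adjusted p = 0.170 over 120 neighbour comparisons). The other vascular class was low: endothelial cells held 8.8, 15.4, 16.2, 7.1 and 26.0 CPM, and the log2 ratio of mural to endothelial cells was 6.33 (SE 0.17, edgeR adjusted p = 3.69e-33).

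Fibroblast markers in the mural gate were low beside the fibroblasts' own. The 6 markers summed to 340 to 605 CPM in mural cells against 11134.9 to 15186.1 in fibroblasts, with Dcn at 0 in mural cells. The reverse carry-over was larger, with 7 mural markers summing to 2146 to 2842 CPM in fibroblasts. At least 1 Igf2 UMI was found in 98.0% of 495 fibroblasts, 94.2% of 190 mural cells and 0.776% of excitatory neurons, at median depths of 9438, 5036.5 and 9464.5 UMIs. Thinned to 2000 UMIs, the shares were 87.6%, 82.1% and 0.199%. Choroid plexus cells averaged 124 CPM but ranged from 7.0 to 269.6 CPM over 62 cells, and 1 cell held 24.8% of their Igf2 UMIs. Fibroblast markers in choroid plexus cells summed to 78.8 to 158 CPM, and their part in the Igf2 level was not tested.

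Fibroblasts, 1.16% to 1.95% of cells, supplied 84.3%, 81.2%, 81.1%, 83.4% and 72.5% of Igf2 UMIs in kept cells. Mural cells supplied 5.996% to 20.2%. Cells removed for markers of incompatible classes held 938, 1216, 1068, 604 and 818 Igf2 UMIs. All kept cells held 2585, 1395, 4317, 1095 and 1945. Excitatory neurons, the largest class, stood at 0.4 to 0.9 CPM, from 86 UMIs in 10564 cells. Among neuronal and glial classes the highest mean Igf2 level was that of ependymal cells, 10.9 CPM. Cajal-Retzius cells were above them only in wild-type replicate 1 (11.2 against 6.5 CPM). Fibroblast markers in ependymal cells summed to 19.8 to 50.2 CPM, with Lum at 0, and their part in the Igf2 level was not tested.

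Igf1r (ENSMUSG00000005533, chr7:67952827-68233668, plus strand), the signalling receptor, was found in every class and was highest in endothelium. Endothelial cells held 524.5, 427, 430.5, 535 and 481 CPM, choroid plexus cells 192 ± 56.5 CPM (SD, n = 5), and the next 4 classes, intermediate progenitors, oligodendrocyte precursors, fibroblasts and ependymal cells, 99.4 to 104 CPM. Endothelium was above choroid plexus in all 5 libraries, and choroid plexus above intermediate progenitors in all 5, while those next 4 classes did not differ from their neighbours beyond the spread (exact sign-flip p from 0.375 to 0.938). Against the mean of the other classes endothelium was higher by 2.43 (log2, SE 0.06, edgeR adjusted p = 9.18e-38). Mural cells, on the other side of the vessel wall, held 60.2, 22.1, 24.5, 10.0 and 12.4 CPM from 26 UMIs over the 5 libraries, and the ratio to endothelium was -4.21 (log2, SE 0.22, adjusted p = 4.30e-22).

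Excitatory neurons held Igf1r at 89.0, 114.9, 80.2, 94.6 and 83.8 CPM. Dentate granule neurons were above CA3 neurons by 0.54 (log2, SE 0.05, edgeR adjusted p = 2.89e-07), with 126 against 84.1 CPM. CA1 neurons had 60.7 CPM ± 10.5. Because excitatory neurons are many, they supplied 33.5% to 48.6% of Igf1r UMIs in kept cells, and endothelium only 2.04% to 9.78%. Cells removed for markers of incompatible classes held 1597, 2167, 1847, 1374 and 1760 Igf1r UMIs, against 297, 111, 718, 227 and 352 in endothelium.

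Igf2r (ENSMUSG00000023830, chr17:12682406-12769664, minus strand), the scavenger receptor, was highest in the 2 classes that led for Igf2. Mural cells held 154, 44.2, 125, 189.7 and 157 CPM and fibroblasts 75.7, 38.7, 56.0, 38.6 and 69.9 CPM. Mural cells were higher than fibroblasts in all 5 libraries, whereas fibroblasts (55.8 CPM) and ependymal cells (51.3 CPM) did not differ beyond the spread (exact sign-flip p = 0.688). Endothelium held 42.5 CPM ± 6.23, and the mural to endothelial ratio was 1.62 (log2, SE 0.21, edgeR adjusted p = 7.49e-09). In microglia only 8 UMIs were counted in all 5 libraries, none of them in the knockout libraries, where a count of 0 allows up to 5.30 and 30.3 CPM. Across the 13 ordered classes the Pearson r of Igf2r with Igf2 was 0.672 and with Igfbp7 0.728, a description of classes that share the same 5 libraries. Airn, the antisense transcript that overlaps Igf2r, is a separate feature of the matrices.

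Among the binding proteins Igfbp2 and Igfbp5 are neighbours on chromosome 1. Both were highest in fibroblasts, choroid plexus cells, ependymal cells and the class of radial glia and astrocytes. Igfbp2 (ENSMUSG00000039323) lies at chr1:72824503-72852474 on the plus strand and Igfbp5 (ENSMUSG00000026185) at chr1:72857932-72874884 on the minus strand, 5457 bases apart and facing each other with their 3′ ends. Across the 13 classes their Pearson r was 0.859, the highest of any pair in the axis. The interneuron gates went opposite ways: Igfbp2 held 65.2 to 97.1 CPM in MGE and 20.1 to 42.1 CPM in CGE cells, whereas Igfbp5 was higher in CGE cells. The 150 bases before the first RefSeq start of each gene (build GRCm38.p6) are shown because the 2 genes share their highest classes but start from separate promoters. Capitals mark GGGCGG, the GC box bound by Sp1, on either strand. The windows lie at chr1:72824330-72824479 (plus strand) and chr1:72874866-72875015 (minus strand).
Igfbp2: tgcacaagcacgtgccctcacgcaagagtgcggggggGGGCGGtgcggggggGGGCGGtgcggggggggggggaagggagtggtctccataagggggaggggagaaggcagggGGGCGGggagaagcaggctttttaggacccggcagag
Igfbp5: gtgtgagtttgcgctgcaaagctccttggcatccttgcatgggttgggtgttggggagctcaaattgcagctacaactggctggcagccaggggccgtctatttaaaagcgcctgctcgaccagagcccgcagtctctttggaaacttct
The Igfbp2 window holds 3 copies of GGGCGG and the Igfbp5 window none, and 28.6% of all 32851 RefSeq promoter windows of this length hold 1 or more. TATAAA, the TATA box, is in neither window on either strand. It is in 7.57% of all windows and, of the 9 genes of the axis with an entry, in that of Igfbp4. No match says only that these letters are not in the window.

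Igfbp2, a binding protein of developing glia and meninges, reached 3332, 3622, 3362, 3335 and 3270 CPM in fibroblasts, the narrowest relative spread of a leading class in these data. Choroid plexus cells held 1695 CPM ± 434, ependymal cells 859 ± 147 and the class of radial glia and astrocytes 467 ± 33.9. Each of these 4 classes was above the next in all 5 libraries, and radial glia were above oligodendrocyte precursors (159 CPM) in all 5. Astrocytes that carried maturation markers were above radial glia without them by 0.95 (log2, SE 0.07, edgeR adjusted p = 1.75e-12), at 514 against 273 CPM. Radial glia and astrocytes supplied 39.6%, 35.7%, 24.0%, 28.4% and 21.6% of Igfbp2 UMIs in kept cells and fibroblasts 14.9% to 25.9%.

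Igfbp5 stood at 311, 192, 213, 201 and 467 CPM in fibroblasts, 163 ± 44.8 in choroid plexus, 134 ± 20.6 in radial glia and astrocytes and 130.2 ± 19.4 in ependymal cells. The fibroblast value was uneven over cells: 34.3% of fibroblasts had an Igfbp5 UMI, and the tenth of cells with the most held 77.8% of the UMIs. By the share of cells with a UMI after thinning, ependymal cells led with 21.3%, and fibroblasts followed with 18.5%. Division was compared in 2 progenitor classes. In radial glia and astrocytes the Igfbp5 ratio of dividing to non-dividing cells was -1.33 (log2, SE 0.06, edgeR adjusted p = 1.26e-19), with 60.9 against 158 CPM, and in intermediate progenitors it was -1.58 (SE 0.19, adjusted p = 1.84e-07), with 14.5 against 47.7 CPM. Igfbp2 was also lower in dividing intermediate progenitors, by a ratio of -0.59 (log2, SE 0.14, edgeR adjusted p = 0.00102), and in dividing radial glia and astrocytes the ratio was -0.30 (SE 0.05, adjusted p = 4.61e-06). Interneuron lineages differed as well, with Igfbp5 at 160.3 CPM in CGE and 49.96 in MGE cells, a log2 ratio of 1.60 (SE 0.12, edgeR adjusted p = 6.25e-13).

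Igfbp7 (ENSMUSG00000036256, chr5:77349240-77408041, minus strand), a secreted protein of vessel walls with low affinity for the ligands, marked both layers of the vessel. Mural cells held 1798, 2475, 2692, 2477 and 2197 CPM and endothelial cells 1679, 2124, 1868, 1641 and 1817 CPM. Fibroblasts came next at 34.7 CPM, and endothelium was above them in all 5 libraries. The mural to endothelial ratio was 0.32 (log2, SE 0.11, edgeR adjusted p = 0.0174), and that call was lost without wild-type replicate 3 (ratio 0.23, adjusted p = 0.212), knockout replicate 2 (0.24, adjusted p = 0.0661) or knockout replicate 3 (0.29, adjusted p = 0.112). An Igfbp7 UMI was found in 98.9% of mural cells, 96.2% of endothelial cells and 1.18% of excitatory neurons, and in 97.1%, 90.3% and 0.180% after thinning. Endothelium, 292 cells, supplied 61.9% to 67.5% of Igfbp7 UMIs in kept cells and mural cells 18.3% to 26.6%. These shares varied less between libraries than those of Igf1. They leave out the cells removed for markers of incompatible classes, which held 4644, 7405, 6526, 4866 and 5010 Igfbp7 UMIs. All kept cells held 1471, 892, 4617, 1061 and 1995. Of the removed cells 363 reached both the endothelial and the mural gate. Dividing radial glia and astrocytes held less Igfbp7 than non-dividing ones (log2 ratio -1.54, SE 0.26, edgeR adjusted p = 4.17e-06).

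Igfbp3 (ENSMUSG00000020427, chr11:7206086-7213923, minus strand), the main carrier of the ligands in blood, was highest in endothelium and low in mural cells (3.50 CPM). Endothelial cells held 162.5, 181, 138, 193 and 76.5 CPM, of which knockout replicate 3 was the lowest. Oligodendrocyte precursors followed at 31.0, 37.4, 45.8, 32.4 and 45.3 CPM, below endothelium and above GABA neurons (21.4 CPM) in all 5 libraries. The mural to endothelial ratio was -4.77 (log2, SE 0.36, edgeR adjusted p = 4.52e-16). In excitatory neurons it separated the fields, with 26.9 CPM in CA3 and 4.38 in dentate granule neurons (log2 ratio of dentate to CA3 -2.59, SE 0.13, edgeR adjusted p = 8.93e-11).

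The promoters of Igfbp7 and Igfbp3 are shown beside each other, since both genes were found in endothelium and differed in mural cells. Igfbp4, also found in endothelium, is not shown. The windows lie at chr5:77408046-77408195 and chr11:7213924-7214073, both on the minus strand, in RefSeq build GRCm38.p6, with GGGCGG on either strand in capitals.
Igfbp7: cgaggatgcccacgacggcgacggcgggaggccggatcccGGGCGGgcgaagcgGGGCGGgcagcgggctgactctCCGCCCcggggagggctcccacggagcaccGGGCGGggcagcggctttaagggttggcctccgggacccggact
Igfbp3: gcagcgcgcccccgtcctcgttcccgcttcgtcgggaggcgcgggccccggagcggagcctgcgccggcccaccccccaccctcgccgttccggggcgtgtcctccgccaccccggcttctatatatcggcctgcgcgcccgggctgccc
The Igfbp7 window holds 4 copies of GGGCGG and the Igfbp3 window none.

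Igfbp4 (ENSMUSG00000017493, chr11:99041244-99054392, plus strand), which is cleaved by the protease Pappa to free its ligand, was broad and highest in border macrophages. They held 720.2, 845, 624, 834 and 899.6 CPM, against 115, 119, 66.7, 88.3 and 111 CPM in microglia. The 2 macrophage classes did not overlap, with a log2 ratio of 2.90 (SE 0.15, edgeR adjusted p = 1.51e-11), although the ratio for Igf1 was -0.13 (SE 0.20, 95% interval -0.55 to 0.29). Microglial markers in border macrophages summed to 923 to 1250.2 CPM with Sall1 at 0, and border macrophage markers in microglia to 558 to 790.2 CPM with Lyve1 at 0. Fibroblasts held 567 CPM ± 72.2, endothelium 399.7 ± 57.5 and mural cells 222 ± 39.7, each above the next in all 5 libraries. In interneurons the pattern was the reverse of Igf1, with 182, 176.5, 182, 206 and 195.7 CPM in MGE cells and 41.9, 0, 38.7, 15.98 and 22.2 CPM in CGE cells (log2 ratio of CGE to MGE -2.80, SE 0.16, edgeR adjusted p = 3.40e-16). The value of 0 in wild-type replicate 2 came from 29 cells, where a count of 0 allows up to 11.5 CPM (3 counts).

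Igfbpl1 (ENSMUSG00000035551, chr4:45809468-45826923, minus strand), a secreted relative of the binding proteins, was highest in intermediate progenitors and excitatory neurons. Intermediate progenitors held 1885, 2131.5, 2099.7, 2159 and 1988 CPM and excitatory neurons 1451, 1503, 1262, 1316 and 1144.5 CPM, with progenitors higher in all 5 libraries. Among excitatory neurons the level differed by field: 2051 CPM ± 139 in dentate granule neurons, 812 ± 77.6 in CA3 and 509 ± 90.1 in CA1. The dentate to CA3 ratio was 1.31 (log2, SE 0.04, edgeR adjusted p = 2.88e-13). Non-dividing progenitors held more than dividing ones, 2326 against 1785 CPM (log2 ratio of dividing to non-dividing -0.29, SE 0.05, edgeR adjusted p = 8.24e-06). Maturing astrocytes held less than radial glia without their markers, 88.3 against 166 CPM (log2 ratio -0.87, SE 0.07, adjusted p = 5.42e-11). In interneurons the CGE cells were higher, by 1.68 (log2, SE 0.10, edgeR adjusted p = 1.25e-15). Excitatory neurons supplied 58.6% to 67.9% of Igfbpl1 UMIs in kept cells.

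Outside the neuronal lineages mean Igfbpl1 was highest in choroid plexus cells, at 316, 517, 798, 416 and 251 CPM. Of its 775 UMIs in 62 such cells 1 cell held 17.4%, and the tenth of cells with the most held 61.3%. Ependymal cells held 297, 464, 248.5, 268 and 283 CPM of Igfbpl1, above choroid plexus cells only in knockout replicate 3. It was lower in cells of vessels, meninges and the immune system. A UMI of it was found in 19.6% of microglia, 17.1% of endothelial cells and 20.4% of fibroblasts, at median depths of 9983, 7719.5 and 9438 UMIs. In microglia the levels were 12.7, 24.9, 200.1, 24.7 and 40.5 CPM, and the 8 markers of excitatory neurons summed to 47.1, 80.3, 188, 56.5 and 303 CPM there. After thinning the shares were 5.86%, 6.23% and 7.14%. The part of free or mixed RNA in these levels was not tested.

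**Figure D2:**
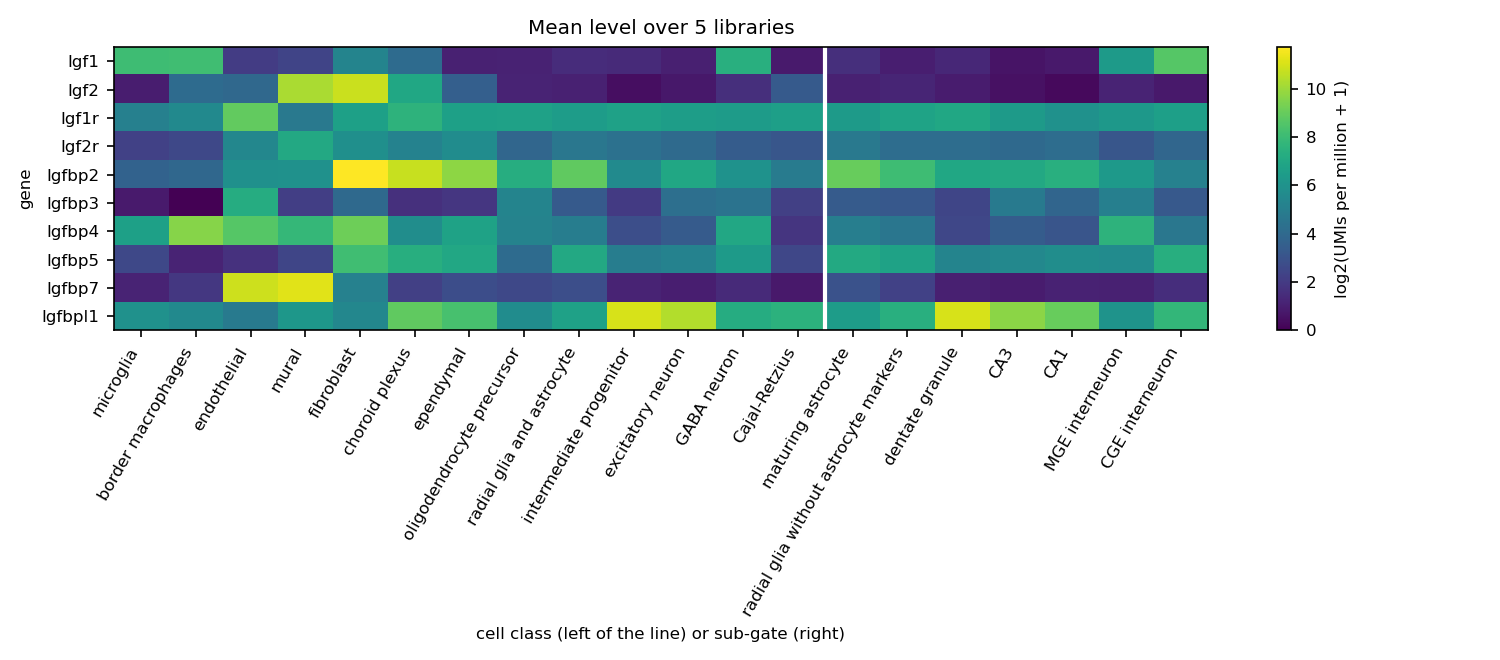
Mean level of each gene over 5 libraries, as log2 of CPM plus 1 (colour), in 13 cell classes (left of the white line) and 7 sub-gates (right). Igf2, Igfbp2 and Igfbp7 peak in fibroblasts or mural cells, Igfbpl1 in intermediate progenitors (2053 CPM) and excitatory neurons, and Igf1r is seen in every class.

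**Figure D3:**
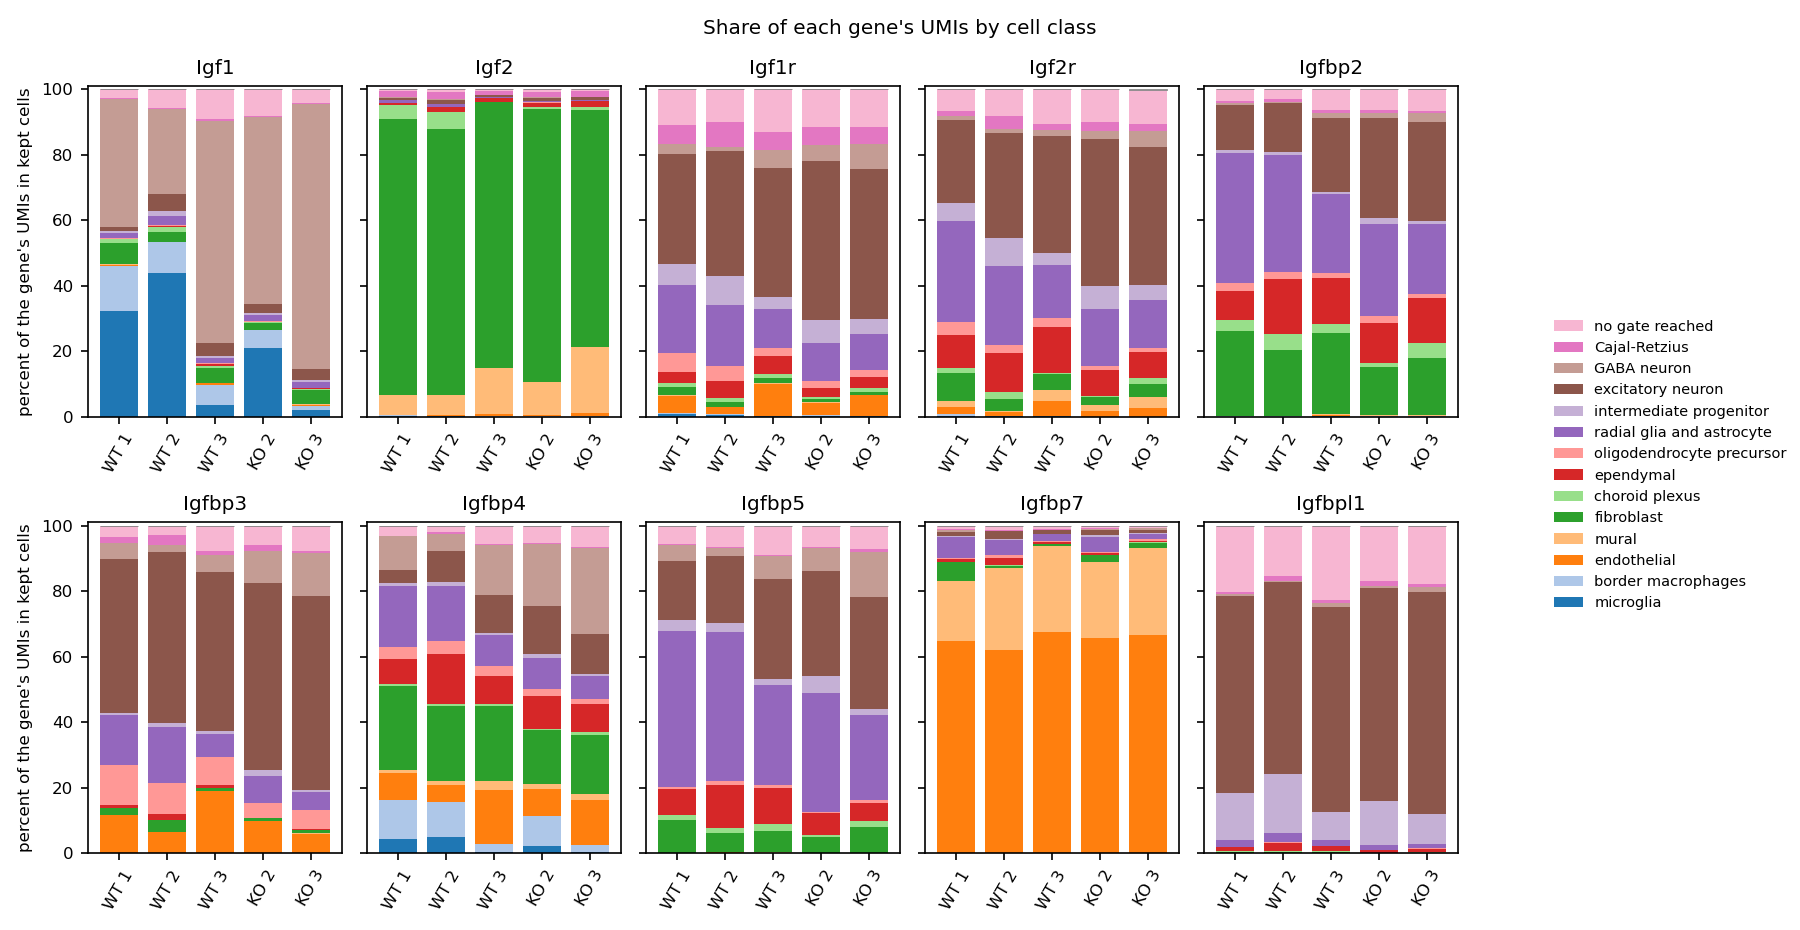
Share of each gene's UMIs by cell class in the 5 libraries, in percent of the UMIs in kept cells; erythroid cells are not drawn. The Igf1 bars change from library to library, with GABA neurons at 25.9% to 80.7%, whereas the Igf2 and Igfbp7 bars keep 1 leading class.

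Each class with at least 20 cells in every library was then set against the mean of the other 8, with the library as a block, and the counts were read beside those of all 14518 genes without gate markers. In fibroblasts 7 genes of the axis were higher and 1 lower, where 29.7% and 28.9% of all genes were higher and lower. The largest differences were Igf2 (log2 9.79, SE 0.07), Igfbp2 (4.97, SE 0.05), Igfbp4 (4.31, SE 0.08) and Igf1 (4.01, SE 0.21). Endothelium had 6 higher and 3 lower (all genes 28.8% and 35.7%), led by Igfbp7 at 9.26 (SE 0.09) and Igfbp3 at 4.07 (SE 0.16). Ependymal cells had 6 higher and 3 lower (41.3% and 36.1%), led by Igfbp2 at 2.46 (SE 0.06) and Igfbp5 at 2.03 (SE 0.11).

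GABA neurons had 4 higher and 5 lower (all genes 35.4% and 34.6%), led by Igf1 at 6.21 (log2, SE 0.10) and Igfbp4 at 1.74 (SE 0.09). Radial glia and astrocytes had 3 higher and 6 lower (40.9% and 26%), led by Igfbp5 at 2.20 (SE 0.09) and Igfbp2 at 1.64 (SE 0.06). Excitatory neurons had 2 higher and 7 lower (39.5% and 35.9%), and Igfbpl1 was the higher one of size, at 3.32 (SE 0.09). Intermediate progenitors had 1 higher, Igfbpl1 at 3.995 (SE 0.09), and 7 lower (34.9% and 26.6%). Oligodendrocyte precursors had 1 higher, Igfbp3 at 1.70 (SE 0.16), and 8 lower (30.9% and 23.4%). Cajal-Retzius cells, the Reln neurons of the surface, had 1 higher, Igf2 at 1.06 (SE 0.18), and 8 lower (35.9% and 32.8%). The Igf2 value there was -0.03 over 13 classes.

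The smaller classes entered a fit over 13 classes that was added after the data were seen. There mural cells had 4 higher and 4 lower (all genes 16.8% and 13.1%), with Igfbp7 at 8.85 (log2, SE 0.12) and Igf2 at 7.52 (SE 0.18). Choroid plexus cells had 6 higher and 1 lower (27.6% and 23.9%), led by Igfbp2 at 4.01 (SE 0.09). Microglia had 2 higher and 6 lower (25.1% and 24.3%), Igf1 at 5.95 (SE 0.14) and Igfbp4 at 1.06 (SE 0.15). Border macrophages had the same 2 higher and 6 lower (19.9% and 20.7%), Igf1 at 5.58 (SE 0.20) and Igfbp4 at 3.90 (SE 0.11).

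For the paired gates given with each gene above, 7 of 8 tested genes differed between CGE and MGE interneurons, where 15.8% of all genes did. Mural and endothelial cells differed in 7 of 8 (43.2% of all genes), maturing astrocytes and radial glia in 7 of 8 (34.5%), and dentate granule and CA3 neurons in 5 of 7 (65.3%). Dividing and non-dividing intermediate progenitors differed in 4 of 6 (43.3%), radial glia and astrocytes by division in 5 of 8 (60.5%), and the 2 macrophage classes in 1 of 2 (27.8%). The weakest of these calls was Igf1r between CGE and MGE cells (log2 0.30, SE 0.10, edgeR adjusted p = 0.0375), and it was lost without wild-type replicate 1 or either knockout replicate (adjusted p from 0.101 to 0.122).

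**Figure D4:**
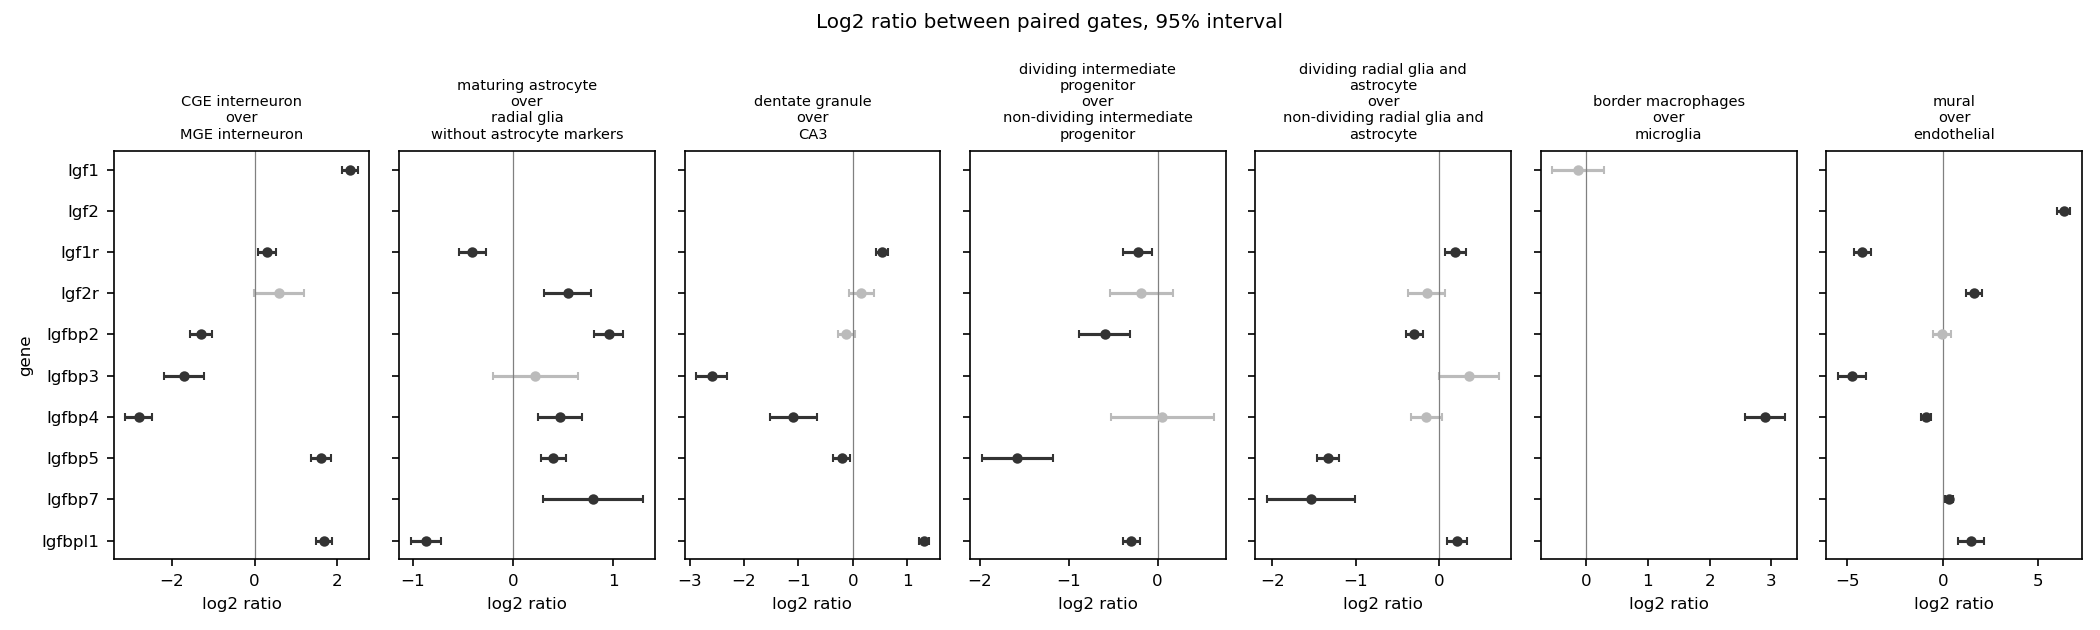
Log2 ratio between paired gates of cells from the same 5 libraries, with 95% intervals, for each tested gene; dark points passed an adjusted p of 0.05 and grey points did not, and the horizontal scales differ. CGE over MGE interneurons shows Igf1 at 2.31 and Igfbp4 at -2.80, and mural over endothelial cells shows Igf2 at 6.33 and Igf1r at -4.21.

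By likeness of the class pattern (Pearson r of mean log2 CPM plus 1 over 13 classes, among 7863 genes), the genes nearest to Igf1 were Maf (0.957), Kctd12 (0.882) and Ptgs1 (0.854). Nearest to Igf2 were Ifitm1 (0.967), Slc6a20a (0.960) and Pcolce (0.947), and to Igfbp7 Emcn (0.965), Adora2a (0.965) and Foxf2 (0.964). Near to Igf1r were Aqp11 (0.910) and Podxl (0.881), and Igf2r was nearest to Cdc42ep4 (0.953), Pxdn (0.941) and Zfand3 (0.934). Igfbp2 was nearest to Slc7a11 (0.920), Lpar1 (0.920) and Flnc (0.917), and Igfbp5 to Fgfr2 (0.935), Tmem132c (0.903) and Pdzrn3 (0.896). Igfbp3 was nearest to Kif26a (0.906), Pnkd (0.887) and Ccdc85a (0.879), Igfbp4 to Man2a1 (0.915), Pdxk (0.910) and Klf6 (0.885), and Igfbpl1 to Hrk (0.911), Nedd4l (0.899) and 4930578M01Rik (0.897). These are descriptions over classes that share libraries.

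The wider pathway was taken as 41 listed genes of receptors, signalling, RNA binding and proteolysis, 38 of which entered the class comparison. In endothelium 14 were higher and 15 lower (all genes 28.8% and 35.7%), with the insulin receptor Insr at 2.76 (log2, SE 0.10) beside Igf1r. Fibroblasts had 19 higher and 9 lower (all genes 29.7% and 28.9%). The list was led there by the Igf2-preferring binding protein Igfbp6 at 9.53 (SE 0.18), the protease Htra1 at 4.03 (SE 0.11) and the growth hormone receptor Ghr at 3.72 (SE 0.13). In GABA neurons 14 were higher and 14 lower (all genes 35.4% and 34.6%), and Pappa, the protease that cleaves Igfbp4, was at 4.59 (SE 0.25). MGE cells, which held more Igfbp4 than CGE cells, had 27.1 CPM of Pappa and CGE cells 0.2, a difference given without a test. Igfbp4 itself was higher still in border macrophages, fibroblasts and endothelium. In excitatory neurons 16 were higher and 12 lower (all genes 39.5% and 35.9%), with the protease Pappa2 at 3.47 (SE 0.21). H19, the neighbour of Igf2 and imprinted with it, stood at 252 CPM in fibroblasts and 3.0 in mural cells, although both classes held Igf2. Dlk1, another imprinted gene, stood at 79.7 CPM in fibroblasts and 145 in mural cells. H19 and Dlk1 were picked from the imprinted list after their levels were seen, and the differences were not tested.

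The genotype comparison asks whether loss of Trem2 goes with a change in any source or receptor. Trem2 itself was checked first. In microglia it stood at 1518, 1571, 1279, 60.01 and 70.8 CPM, lower in both knockout libraries by a log2 ratio of -4.50 (SE 0.29, edgeR adjusted p = 3.06e-06). In border macrophages it stood at 237, 248.7, 329, 12.1 and 49.98 CPM (log2 -3.69, SE 0.48, adjusted p = 0.00360, but 0.476 without knockout replicate 2), where each knockout value rests on 3 UMIs. Trem2 and 1 other gene were called in microglia.

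No gene of the axis passed an adjusted p of 0.05 in any of the 18 planned comparisons, which were all kept cells, microglia and 16 further gates. These held 143 tests of the 10 genes, and 13 had an unadjusted p under 0.05. The count of all genes under that cut is given only over all kept cells, in the last section, so 13 is not read as an excess. Of all genes 0% were called in 15 of the 18, 0.0289% in microglia, 0.00858% in Cajal-Retzius cells and 0.00737% in maturing astrocytes. In 3 comparisons added after the data were seen, 15 tests of the axis gave 0 calls and 1 unadjusted p under 0.05, beside 0.0247% of all genes called in border macrophages and 0% in mural and choroid plexus cells. With DESeq2 no gene of the axis was called in these 21 comparisons either. Simulated 2-fold changes of 200 genes, all above a count limit, were recovered at 83.5% in excitatory neurons, 79% in GABA neurons, 55% in fibroblasts and 7% in microglia. In microglia a change of that size was thus mostly not detectable at this depth. With 200 genes changed at once the adjustment is milder than in the data, where few or no genes were called. These rates are therefore not the detection rate of a single axis gene.

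For Igf1 the ratio of knockout to wild type in microglia was -0.20 (log2, SE 0.29, 95% interval -0.82 to 0.41). It was 0.13 in cells with at most 5% mitochondrial UMIs, as few as 6 microglia in a library. In CGE interneurons the Igf1 ratio was 0.07 (SE 0.14, interval -0.22 to 0.35). The knockout values lay within or beside the wild-type range in both. In border macrophages it was -0.86 (SE 0.33, interval -1.56 to -0.17, edgeR adjusted p = 0.99967), where both knockout libraries (174 and 199.9 CPM) were below all wild-type libraries but rest on 31 and 8 cells, and groups did not overlap for 19.6% of all genes there. For Igf2 the ratio was -0.004 in fibroblasts (SE 0.21, interval -0.47 to 0.46), and over all kept cells -0.65 (SE 0.29, interval -1.34 to 0.04, adjusted p = 0.477). Over all kept cells Igf2 stood at 41.8, 29.0, 54.8, 18.8 and 32.9 CPM, and fibroblasts made up 1.95%, 1.57%, 1.93%, 1.16% and 1.23% of cells.

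Igfbpl1 had an unadjusted p under 0.05 in 3 classes. In fibroblasts the gene had 238 UMIs in 495 cells over the 5 libraries. Of these 1 cell held 11.8% and the tenth of cells with the most held 78.6%. Igfbpl1 in fibroblasts stood at 67.8, 56.2, 51.3, 24.1 and 11.9 CPM, with a log2 ratio of -1.71 (SE 0.33, 95% interval -2.43 to -0.997, edgeR adjusted p = 0.588). Without a filter on low counts the ratio was -1.72 and the adjusted p 0.000273. Its groups did not overlap, as was so for 19.5% of all genes in that class. The 8 excitatory neuron markers in fibroblasts, none of them at 0 over the libraries, summed to 68.9 to 88.6 CPM in wild type and 63.9 to 85.1 CPM in knockout. Igfbpl1 in CGE interneurons stood at 213, 303.5, 257.5, 199 and 125 CPM (log2 -0.67, SE 0.18, interval -1.05 to -0.29, adjusted p = 0.862), and its groups did not overlap either, as for 17.9% of all genes there. With males per pool added to the model the ratio was -0.80 and the edgeR adjusted p 0.00759. In CA1 neurons the same gene was at 468, 383, 505, 604 and 586 CPM (log2 0.40, SE 0.12, adjusted p = 0.983), and groups did not overlap for 20.2% of all genes. With 1 more marker required per cell that ratio was -0.09.

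Of the other unadjusted differences, Igfbp3 was higher in knockout MGE interneurons by a ratio of 0.65 (log2, SE 0.25, 95% interval 0.14 to 1.16), at 29.4, 38.0, 18.7, 40.7 and 36.6 CPM with groups that overlapped. Over all GABA neurons its ratio was 0.66 (SE 0.22), at 18.4, 21.6, 14.4, 29.3 and 23.6 CPM, and groups did not overlap for 19.1% of all genes there. Igfbp2 in dentate granule neurons had a ratio of 0.42 (SE 0.15), at 94.2, 100.3, 133, 160.1 and 131 CPM, again with overlap. Igf2 and Igfbp7 in excitatory neurons both had -0.88 (SE 0.38 and 0.31), at levels of 1.4 CPM or less. Fibroblast markers in excitatory neurons summed to 10.4 to 34.5 CPM in wild type and 9.92 to 18.2 CPM in knockout, and endothelial markers to 13.5 to 16.5 and 11.7 to 12.8 CPM, with none of either list at 0. Their part in these 2 ratios was not tested.

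Igfbp4 had an unadjusted p under 0.05 in 2 classes, with ratios of 0.37 in endothelium (log2, SE 0.17, edgeR adjusted p = 0.99948) and 0.40 in ependymal cells (SE 0.17, adjusted p = 0.99909). In fibroblasts it stood at 516, 497, 540, 610 and 670 CPM, where groups did not overlap for 19.5% of all genes. In radial glia and astrocytes the knockout lay within the wild-type range, at 34.2, 26.9, 32.3, 28.5 and 28.1 CPM. Endothelial Igfbp4 stood at 399, 342, 343, 448 and 466 CPM, so the knockout libraries were the 2 highest, and groups did not overlap for 17.7% of all genes there. In ependymal cells Igfbp4 stood at 99.0, 104.7, 78.2, 140.1 and 109 CPM and Igfbp5, with a ratio of -0.35 (SE 0.14), at 157.5, 136.6, 133, 107 and 116 CPM, where 19.6% of all genes had groups that did not overlap. Igfbp5 in Cajal-Retzius cells had 1.02 (SE 0.43), a value that came from knockout replicate 3 (9.7 CPM against 3.0 to 3.6 in the others). Igf1r in CA1 neurons had 0.42 (SE 0.17), at 52.1, 50.3, 57.6, 73.2 and 70.2 CPM. The ratio was -0.06 in cells with at most 5% mitochondrial UMIs, as few as 5 CA1 cells in a library. A test of whether a genotype ratio differed between a class and the other classes gave 0 calls in 90 tests of the axis (smallest adjusted p = 1, edgeR).

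No gene of the pathway list was called between genotypes in any class. Over all kept cells 38 were tested, 22 above and 16 below 0, with a median of 0.03 (log2) beside -0.01 for all genes. The smallest p there were those of Adamts1 (-0.55, SE 0.15, edgeR adjusted p = 0.430), Htra1 (-0.42, SE 0.12, adjusted p = 0.430) and Ide (-0.72, SE 0.22, adjusted p = 0.430). Ide, the insulin-degrading enzyme, also had the smallest p of the list in excitatory neurons (-0.59, SE 0.16, adjusted p = 0.998), GABA neurons (-0.68, SE 0.19, adjusted p = 0.777) and radial glia and astrocytes (-0.58, SE 0.17, adjusted p = 0.99989). Of the 10 imprinted genes listed beside Igf2 and Igf2r, 0 were called. The median of the axis itself was -0.04 over all kept cells, 4 genes above 0 and 6 below.

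**Figure D5:**
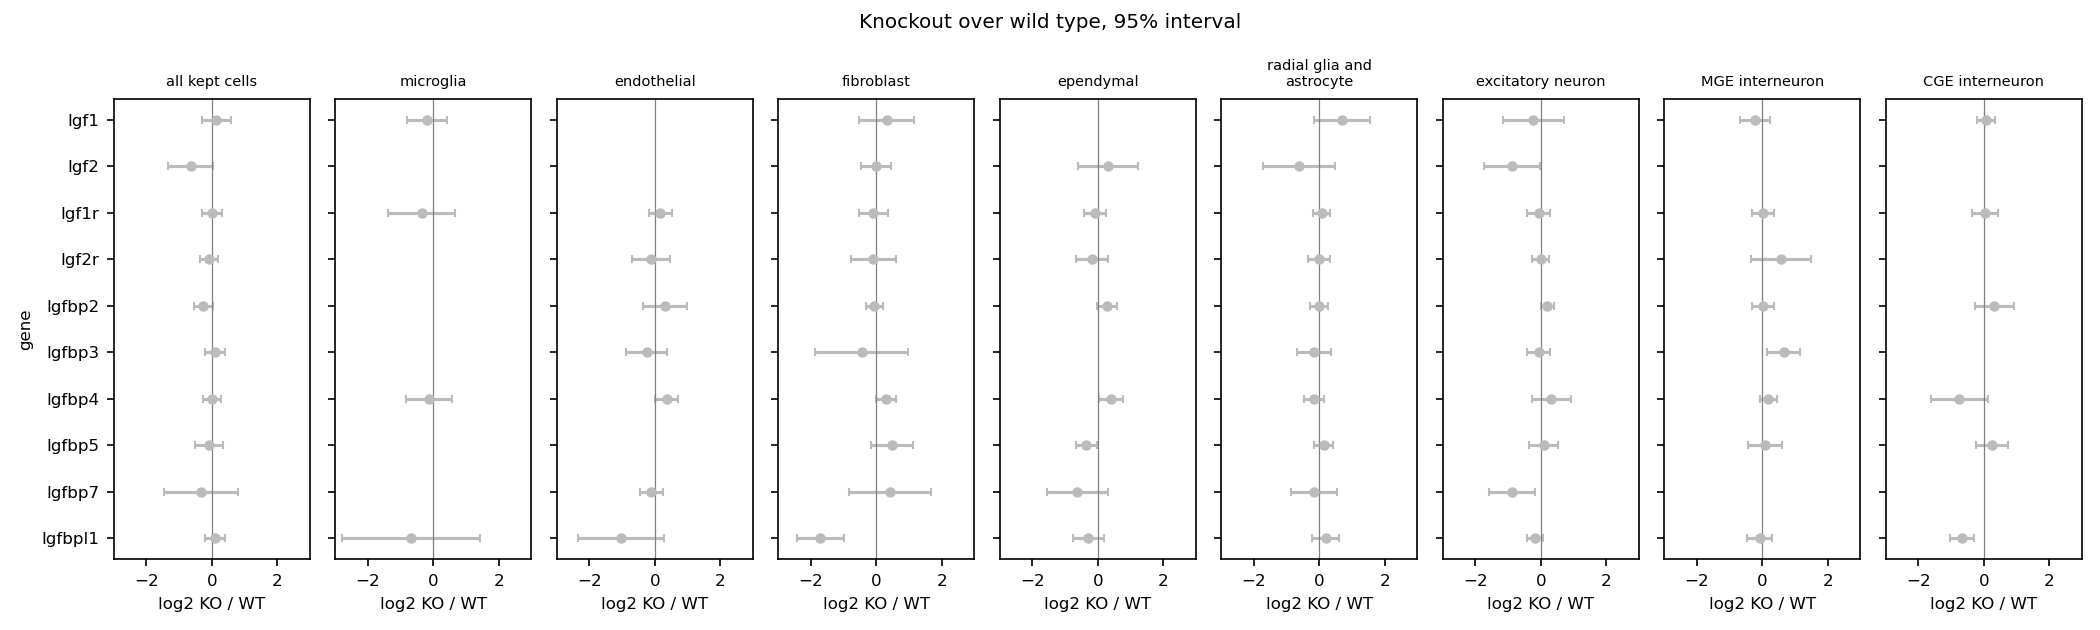
Log2 ratio of knockout to wild type with 95% intervals for each tested gene of the axis, over all kept cells and in 8 classes or gates. No point passed an adjusted p of 0.05 (all are grey), and the widest intervals are those of genes at low levels, such as Igfbpl1 in microglia.

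Class shares did not pass a test between genotypes. Excitatory neurons made up 31.3% of wild-type and 39.2% of knockout cells on average, and fibroblasts 1.81% and 1.20%, in both cases with libraries that did not overlap, which gives p = 0.1 (exact permutation test, two-sided), the smallest p that 3 against 2 libraries allow, and adjusted p = 0.6. The shares of a gene's UMIs by class gave no adjusted p under 0.723.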

How the data were processed

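Single cells of 5 whole hippocampus libraries were measured with a 10x Genomics 3′ kit. The deposited values are raw UMI counts per gene and barcode, made by the authors with Cell Ranger 6.1 on mm10 per the submitters' processing notes (6.1.1 per the file headers). The annotation release and the cell calling settings are not given in the sources used here.

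Barcodes were kept from 500 genes and 1000 UMIs up, with a mitochondrial share of no more than 15%. A cell joined a class when at least 50% of its markers were detected, and cells that reached incompatible classes were removed as doublets, with no doublet caller. For each class the cells' counts in a library were added up, and the sums entered edgeR 4.0.16 (quasi-likelihood test, TMM, filterByExpr, Benjamini-Hochberg over all genes, threshold 0.05) in R 4.3.3, with DESeq2 1.42.0 as an alternative. Microglia and the classes with 20 or more cells in each of the libraries were fitted; differences between classes had the library as a block. Thinning drew 2000 UMIs per cell. Neighbours in an order of classes were compared by an exact two-sided sign-flip test. The test was tested on simulated data, which changed 200 genes in each of 5 sets of cells. The pathway and imprinted genes named are those that passed a test or had the smallest p, and up to 3 genes per axis gene are named by likeness among genes with a class mean of at least 50 CPM. One gene named by this rule is not reported here. The genes, lists and markers were chosen with earlier results of these data known. The alternatives were other scalings, no filter, a replicate block, males per pool, other mitochondrial limits and gates, doublets kept and each library left out. Gene positions are those of GENCODE M21. Intervals cover the spread between libraries.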

Additional observations from a re-analysis of the deposited data

How the results depend on the processing

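Between genotypes, the count of axis genes called was 0 in 286 of 292 alternatives over 21 comparisons. It was 1 in the other 6. These were Igf2 over all kept cells (log2 -0.64, edgeR adjusted p = 0.00155) and Igfbpl1 in fibroblasts (-1.61, adjusted p = 0.0284), oligodendrocyte precursors (-0.80, adjusted p = 0.00453) and CGE interneurons (-0.84, adjusted p = 0.000791) with a replicate block, Igfbpl1 in fibroblasts with no filter, and in CGE interneurons with males per pool in the model. With the replicate block 1133 of 18201 genes were called over all kept cells, against 0 without it (1958 at an unadjusted p under 0.05) and 213 by DESeq2. The numbers are shared by 2 pairs only, with correlations of 0.468 and 0.538, and wild-type replicate 1 has no partner. With the other knockout library the same wild-type libraries had -0.468 and -0.538. The values are mirrored, so the 2 pairs are not separate evidence of pairing. In microglia 38 genes were called without knockout replicate 2, 24 without knockout replicate 3, 10 with no filter, 9 at the 5% mitochondrial limit and 8 with the block, against 2.

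Some ratios changed sign. At the 5% mitochondrial limit Igf1 was 0.13 in microglia and -0.21 in CGE interneurons, and Igf1r was -0.058 in CA1 neurons. That limit kept 15869 cells, 1461 to 6665 per library. It left as few as 6 microglia, 12 CGE interneurons and 5 CA1 neurons in a library. Igfbpl1 in CA1 neurons was -0.088 with 1 more marker. Leaving out each library moved Igf1 in CGE interneurons from -0.045 to 0.18, the lowest without knockout replicate 2. Over 13 classes Igf2 in Cajal-Retzius cells was -0.028, 1 gene was lower in ependymal cells, 2 were higher in oligodendrocyte precursors and 3 in intermediate progenitors. By thinned share fibroblasts came at place 2 for Igfbp5. The causes were not tested. Of the ratios between classes 266 of 270 and of those between paired gates 165 of 180 kept direction and side of the threshold, and the 15 others of the latter lost the call when a library was left out. Choroid plexus cells (6 to 20 per library), border macrophages (8 to 57) and microglia (15 to 102) were few.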
